A study of Rattus norvegicus with 63 samples.

Results

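The proteasome subunit genes were followed in rat kidney over 17 times, from before to 72 h after the synthetic glucocorticoid methylprednisolone was injected. Members were chosen by name: a probe set (a group of short probes for 1 transcript) was taken if it carried a single gene symbol starting with Psma, Psmb, Psmc, Psmd, Psme, Psmf or Psmg, with Psmb8 and Psmb9 left out. This gave 44 probe sets for 41 symbols (of 10411 symbols), out of 15866 non-control probe sets on the main Affymetrix array, and all 44 were bright enough to be tested. Of the 44, 7 belong to alpha subunits of the core particle, 6 to its standard beta subunits and 1 to the inducible beta subunit Psmb10. A further 5 belong to ATPases and 10 to non-ATPase subunits of the regulatory particle, 5 to activators, 1 to the inhibitor Psmf1 and 7 to assembly chaperones. The remaining 2, Psmc3ip and Psme3ip1, share the prefix but are partners of proteasome proteins and no subunits. Symbols are from the array annotation, and near-identical gene copies exist for Psma3, Psmb3 and Psmg4, so the values of these 3 probe sets are uncertain.

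The untreated group, at 0 h, held 4 libraries. Each of 16 later times (0.25, 0.5, 0.75, 1, 2, 4, 5, 5.5, 6, 7, 8, 12, 18, 30, 48 and 72 h after methylprednisolone) held 3, all of total RNA from whole rat kidney. The labels give neither strain, sex, age, dose nor hour of day. As untreated kidneys belong to 0 h alone, the time since injection cannot be told apart from the hour of day. Whether the replicates came from different rats is not in the labels, and a p-value then covers only the spread among these samples, which may be technical.

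The proteasome is the protease that degrades proteins tagged with ubiquitin in the cytosol and nucleus. Its barrel-shaped core is built of outer rings of alpha subunits and inner rings of beta subunits, a few of which carry the active sites. The regulatory particle caps the core, binds ubiquitin chains and unfolds the substrate with a ring of ATPases. Inflammatory signals such as interferon replace active beta subunits with inducible ones and raise the activator PA28. When proteasome activity falls, the transcription factor Nfe2l1 is known to raise subunit genes together through antioxidant response elements in their promoters. In muscle, glucocorticoids are known for raising ubiquitin ligases and proteasome genes.

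The 250 bases before the start of Psma6, Psme4 and Psmb5 are shown because Psma6 and Psme4 had the clearest rises after the injection, and because Psmb5, an active-site subunit that was lower at 5 to 8 h than at 30 to 72 h, went the other way. They are RefSeq promoter sequences of the assembly GRCr8, printed 5′ to 3′ along the gene's strand. Psma6 lies on the plus strand at chr6:78514097-78514346, Psme4 on the plus strand at chr14:108706393-108706642 and Psmb5 on the minus strand at chr15:32047380-32047629. Capitals mark the letters ACANNNTGT, a loose form of the glucocorticoid receptor element, in Psma6, and TGACNNNGC, the core of the antioxidant response element, in Psme4 (on the opposite strand) and Psmb5.
Psma6: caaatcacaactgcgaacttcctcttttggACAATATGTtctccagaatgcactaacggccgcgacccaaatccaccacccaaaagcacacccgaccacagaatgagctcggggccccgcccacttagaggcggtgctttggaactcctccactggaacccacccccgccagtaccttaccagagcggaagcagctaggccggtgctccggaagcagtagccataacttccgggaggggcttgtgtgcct
Psme4: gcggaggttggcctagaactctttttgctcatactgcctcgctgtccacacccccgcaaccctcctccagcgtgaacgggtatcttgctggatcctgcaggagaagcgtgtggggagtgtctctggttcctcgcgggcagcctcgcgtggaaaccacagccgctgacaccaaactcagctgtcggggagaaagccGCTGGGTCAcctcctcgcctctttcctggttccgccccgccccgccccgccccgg
Psmb5: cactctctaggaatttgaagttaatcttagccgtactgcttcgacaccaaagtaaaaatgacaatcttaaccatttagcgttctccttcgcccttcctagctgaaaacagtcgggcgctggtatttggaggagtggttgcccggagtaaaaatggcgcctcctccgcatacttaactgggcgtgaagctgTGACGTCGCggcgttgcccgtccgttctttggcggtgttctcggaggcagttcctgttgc
Promoters of 300 bases, 250 before to 50 after the start, were matched for 39 of the 41 symbols and searched on both strands. TGACNNNGC was in 7 of the 39 (17.9%), those of Psma3, Psmb2, Psmb5, Psmd1, Psmd3, Psmd9 and Psme4, and in 12.1% of 33465 RefSeq promoters of the same length. ACANNNTGT was in 1 of the 39 (2.56%), 220 bases before the start of Psma6, against 6.85% of all. CCAAT, the letters of the CCAAT box, was in 20 of the 39 (51.3%) and in 37.5% of all. A match is a description and not a site.

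Intensities below are the deposited values, scaled per array to a common trimmed mean. Differences are on the scale log2(intensity + 7.63) with their standard error (SE), which understates changes of dim probe sets. Adjusted p-values are from limma with Benjamini-Hochberg adjustment over all 9520 tested probe sets, and a probe set is called changed when its adjusted p is under 0.05. Times were pooled into windows of 0.25 to 1 h (12 libraries), 2 to 4 h (6), 5 to 8 h (15), 12 to 18 h (6) and 30 to 72 h (9). All comparisons with 0 h share its 4 libraries. Nephron markers were bright in these libraries (median intensity of Lrp2 2350, of Umod 3130). Cyp17a1 of the adrenal, Acta1 of skeletal muscle and Apoa1 of liver had medians of 5.62, 11.8 and 5.28. Other markers were brighter: Ckm of muscle and Ttr and Serpina1 of liver had medians of 76.1, 56.6 and 53.9 and were tested. Alb of liver and Fabp4 of adipose tissue had medians of 39.4 and 18.8 but reached 793 and 345 in their highest libraries. In bulk tissue, fewer cells of a type and less RNA per cell cannot be told apart.

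Libraries of 1 time correlated with r between 0.921 and 0.974 over the tested probe sets. By their r with the other libraries of their time, 2 libraries stood apart, 5 h replicate 2 and 0.25 h replicate 3. One of the arrays of 5 h replicate 1, array a, had ratios of 3′ to 5′ signal of 47.5 for GAPDH and 27.9 for actin, against at most 1.78 and 2.82 on the other 52 arrays. Another library, 7 h replicate 3, was the highest of all 52 for 18 of the 44 members.

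Pooled into windows, most proteasome genes stayed close to their untreated level: at 5 to 8 h 38 of 44 lay within 0.25 (log2) of it, against 69.8% of all tested. At single times, with 3 libraries each, 32 of 44 (72.7%) differed by more than 0.25 at some time, against 91.8% of all tested. A test over all 16 differences from 0 h called 6 of the 44 members (13.6%), against 16.1% of all tested probe sets. The 6 were the core alpha subunit Psma6 (adjusted p = 0.000239), 2 of the 3 probe sets of the activator Psme4 (0.00017 and 0.00217), the non-ATPase subunits Psmd7 (0.0187) and Psmd13 (0.0169) and the ATPase Psmc5 (0.0304). By group these were 1 of 13 standard core subunits, 3 of 15 probe sets of the regulatory particle and 2 of 5 probe sets of activators, both of Psme4. No standard beta subunit, chaperone or inhibitor was called. The time means of a member spread with a median SD of 0.13 (log2), against 0.18 over all tested.

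**Figure D1:**
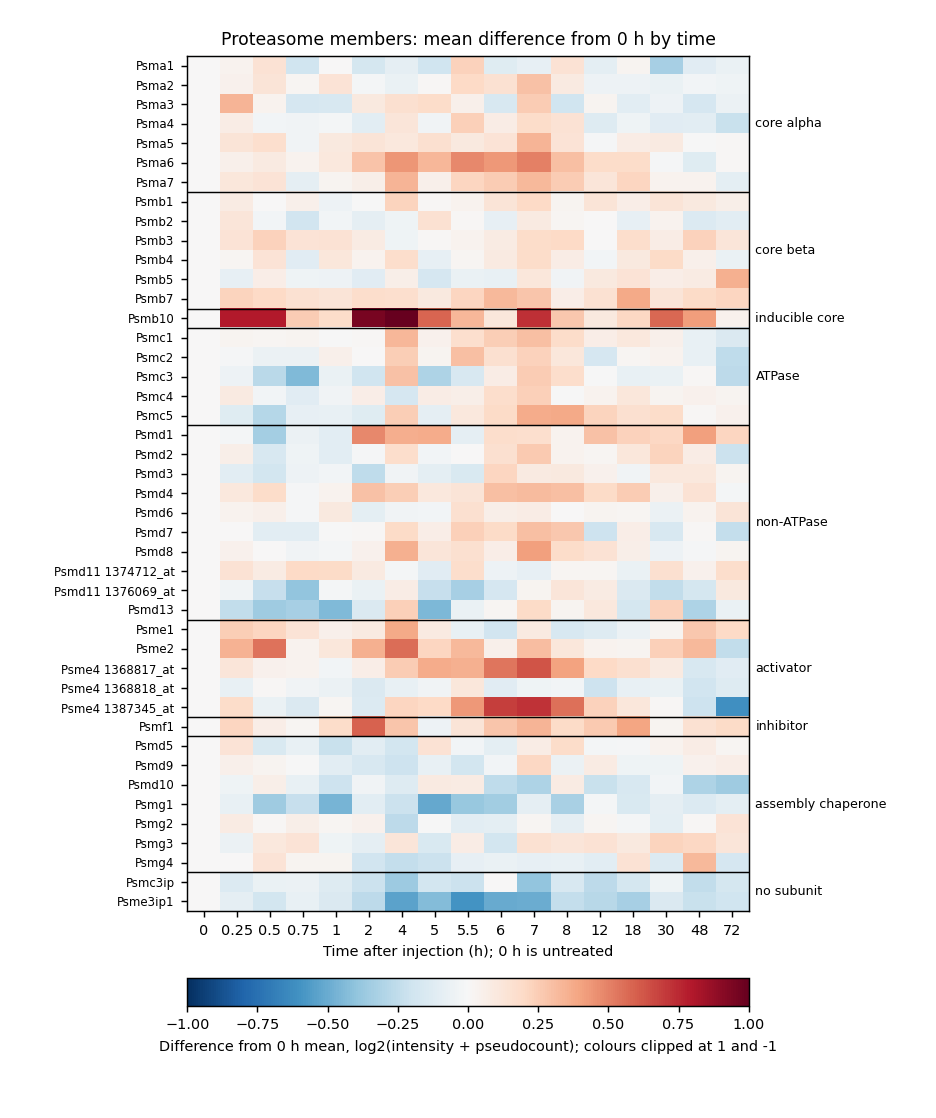
Mean difference from 0 h (log2, colour clipped at 1 in either direction) of each of the 44 members in rows, ordered by role, at each time after injection in columns (n = 3 libraries per time). Most cells are pale; Psma6 and 2 Psme4 probe sets are red around 5 to 8 h, and Psmb10 is red at 2 and 4 h.

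Window by window, the calls were few. At 0.25 to 1 h none of the 44 members was called, against 0.662% of all tested, with 2 at an unadjusted p under 0.05. At 2 to 4 h 1 of 44 was called (2.27%), against 9.97% of all; it was higher, as were 5.17% of all. The window of 5 to 8 h had 5 calls (11.4%), against 9.71% of all, of which 3 were higher (4.98% of all) and 2 lower (4.73% of all). Only 2 or 3 of these 5 calls were left when any 1 of the 4 libraries at 0 h or 6 h replicate 2 was left out. None was called at 12 to 18 h (0.389% of all, 3 members at an unadjusted p under 0.05) or at 30 to 72 h (0% of all, 0 members unadjusted). In the comparison of 5 to 8 h with 30 to 72 h, which does not use the untreated libraries, 9 members were called (20.5%), against 26.2% of all, with 6 higher (12.5% of all) and 3 lower (13.8% of all). In that of 2 to 4 h with 30 to 72 h 1 was called, higher, against 19.4% of all called and 8.88% of all called higher. Without the arrays lettered b or c, 4 of the 9 calls against 30 to 72 h remained, those of Psma6, 2 Psme4 probe sets and Psmd7.

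The members' median difference from 0 h was 0.045 at 2 to 4 h and 0.069 at 5 to 8 h, beside medians of -0.067 and -0.035 over all tested. Without 5 h replicates 1 and 2 and 7 h replicate 3, an alternative chosen after the data were seen, the median at 5 to 8 h was 0.02. Against 30 to 72 h it was 0.06 with these 3 libraries and -0.017 without them, so the direction of that small shift rests on them. The 95% confidence interval of the difference lay within a 1.5-fold change in either direction for 39 of the 44 members (88.6%) at 2 to 4 h, against 56.6% of all tested. It did so for 38 (86.4%) at 5 to 8 h, against 69.8% of all. For most members the interval thus leaves out changes beyond 1.5-fold in these windows.

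Among the alpha subunits, which form the gate of the core, Psma6 stood out. Its intensity was 961.4, 798.2, 846.2 and 813.9 in the 4 libraries at 0 h. It was 935.4, 1149 and 1057 at 2 h and 1069, 1205 and 1208 at 4 h. From 5 to 8 h the lowest of 15 libraries had 961.9, the median 1136 and the highest 1343. All 15 lay above every library at 0 h, and 14 of 15 above every library of 30 to 72 h, which ranged from 741 to 1019 with a median of 813.8. Psma6 thus rose 1.29-fold at 2 to 4 h (difference 0.36 ± 0.10 SE, adjusted p = 0.0101) and 1.33-fold at 5 to 8 h (0.41 ± 0.08, adjusted p = 0.000696). Against 30 to 72 h it was 1.36-fold higher at 5 to 8 h (0.45 ± 0.06, adjusted p = 6.24e-07) and also higher at 2 to 4 h (0.40 ± 0.08, adjusted p = 0.000235). The rise at 2 to 4 h was not called without the arrays that the labels letter b or c (0.32, adjusted p = 0.0635).

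**Figure D2:**
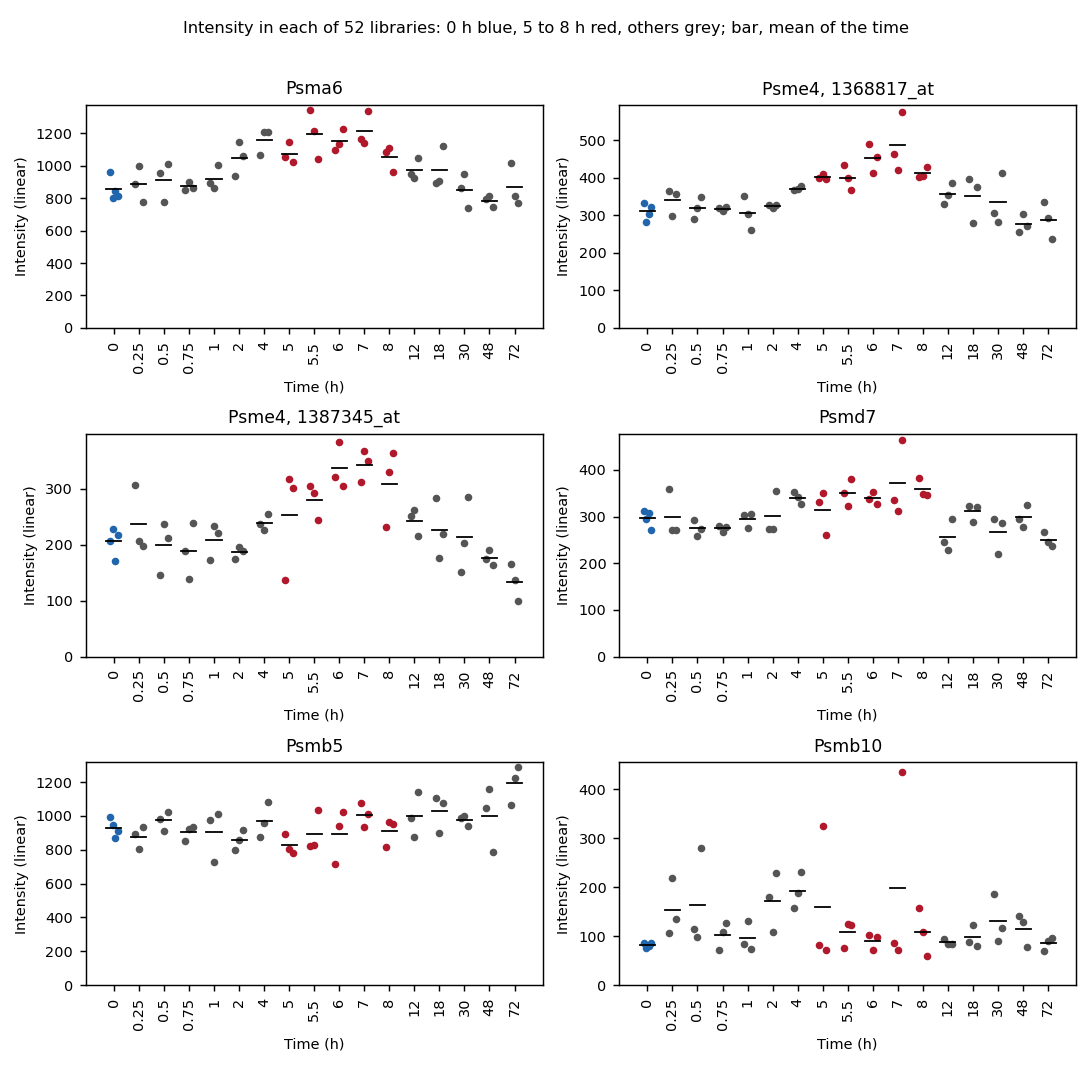
Intensity (linear axis, from 0) in each library against time after injection for Psma6, 2 probe sets of Psme4, Psmd7, Psmb5 and Psmb10, with 0 h in blue, 5 to 8 h in red and a bar at the mean of each time. All 15 red points of Psma6 lie above the 4 blue points, whereas those of Psmb5 overlap them.

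No other alpha subunit was called in any window. The 7 alpha subunits at 5 to 8 h differed from 0 h by between -0.006 (Psma1) and 0.41 (Psma6), with a median of 0.15 and 6 of 7 above 0. All 7 were above 0, from 0.12 to 0.45, against 30 to 72 h, with a median of 0.20. Psma7, the next after Psma6 at 5 to 8 h, had 682.8, 597.9, 600.7 and 592.5 at 0 h. Its 15 libraries of 5 to 8 h ran from 539.6 through a median of 705.9 to 974.2, and 11 lay above every library at 0 h. Psma7 differed from 30 to 72 h by 0.23 ± 0.09 (adjusted p = 0.0524) and Psma4 by 0.27 ± 0.11 (adjusted p = 0.0601), both just short of the threshold.

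The standard beta subunits moved less. Their 6 probe sets differed from 0 h by between -0.046 (Psmb5) and 0.19 (Psmb7) at 5 to 8 h, with a median of 0.069 and no call. Psmb5, which carries the chymotrypsin-like active site, had 993.3, 944.4, 872 and 912.4 at 0 h. It ran from 717.2 through 933.5 to 1077 at 5 to 8 h, and from 788.8 through 1046 to 1287 at 30 to 72 h. Its 3 libraries at 72 h, with 1067, 1225 and 1287, all lay above those at 0 h. Psmb5 was thus lower at 5 to 8 h than at 30 to 72 h (-0.21 ± 0.07, adjusted p = 0.0197), but not called against 0 h (-0.046, adjusted p = 0.827). The call is lost without 48 h replicate 2 or without 72 h replicate 3. It is also lost without the arrays lettered b or c (-0.15, adjusted p = 0.272), among which are 72 h replicates 2 and 3, the 2 highest at that time.

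Psmb7, which carries the trypsin-like active site, had 635.1, 727.7, 594.2 and 589.1 at 0 h. At 18 h, its time of largest difference, it had 766.8, 770.2 and 951.8, all above the libraries at 0 h. Its difference at 5 to 8 h was 0.19 ± 0.09 (adjusted p = 0.179). Psmb4, a beta subunit without an active site and the brightest probe set of the group, ran from 726.8 through 1011 to 1524 at 5 to 8 h, around the 896.7 to 1008 of 0 h, and differed by 0.057.

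**Figure D3:**
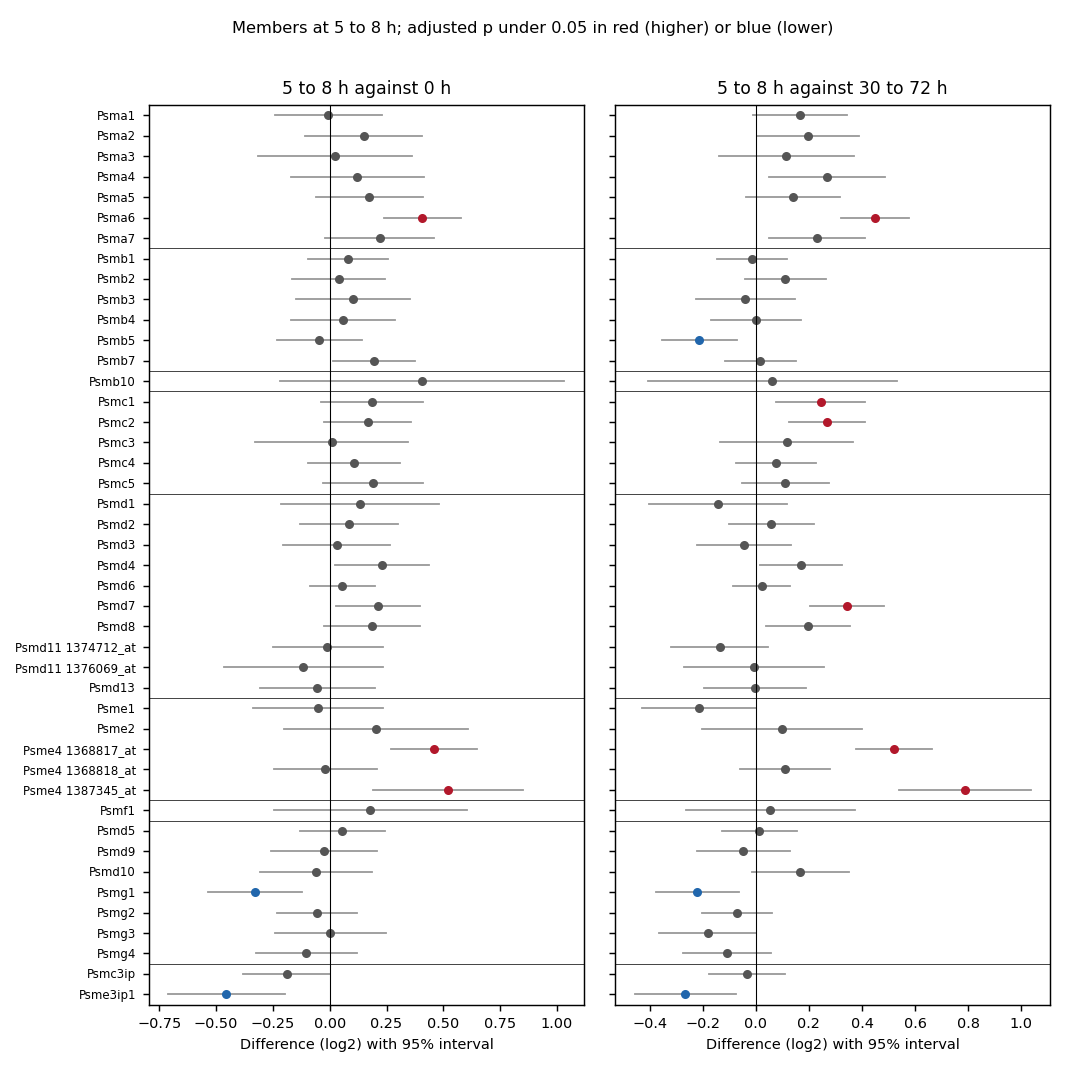
Difference (log2) of the 44 members at 5 to 8 h from 0 h and from 30 to 72 h, with 95% confidence intervals (n = 15, 4 and 9 libraries), ordered by role; members called higher are red and those called lower blue. Most intervals include 0; 3 members are red and 2 blue against 0 h, and 6 red and 3 blue against 30 to 72 h.

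Psmb10, the inducible form that replaces Psmb7 in the immunoproteasome, had the largest difference of the members. Its intensity was 86.99, 75.24, 79.03 and 87.04 at 0 h. At 0.25 to 1 h it ran from 71.2 through 111 to 279, the highest being 0.5 h replicate 3, and the window was not called (0.505). At 2 to 4 h it ran from 107.6 through 184.5 to 230.9, and all 6 libraries lay above those at 0 h. The difference was 1.05 ± 0.36, or 2.06-fold, with an adjusted p of 0.0521, just short of the threshold. The fit shares 1 estimate of the spread over all times. With the 6 libraries and those of 0 h fitted alone the adjusted p for Psmb10 was 0.00183, without 7 h replicate 3 it was 0.0168 and without 5 h replicate 2 it was 0.0259. Leaving out any of 11 single libraries, these 2 included, brought it past the threshold. It moved away from it without 2 h replicate 3 (adjusted p = 0.128) and without each library of 0 h in turn (0.0914 to 0.115). By 5 to 8 h most libraries were near the level at 0 h: 13 of the 15 had between 58.7 and 157.2. The other 2, 5 h replicate 2 with 325.9 and 7 h replicate 3 with 435.7, were far above them, and the window differed by 0.41 (adjusted p = 0.487).

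The same 2 libraries were high in the other genes of the immunoproteasome. Psme1 and Psme2, the alpha and beta chains of the activator PA28, had 937.6 and 957.3, and 592 and 655.1, in 5 h replicate 2 and 7 h replicate 3. The other 13 libraries of 5 to 8 h had 443.2 to 708.4 of Psme1 and 195.7 to 439.4 of Psme2. Psmb8 and Psmb9, the other inducible beta subunits, had 392.5 and 338.9, and 402.7 and 191.3, in these 2 libraries, above the 72.82 to 212.7 and 28.29 to 190.3 of the others. Earlier libraries were high too. In 0.5 h replicate 3 Psmb8 had 355.6, Psmb9 238.6 and Psme2 586.9. In 0.25 h replicate 2 Psmb8 had 267.8, Psmb9 356.8 and Psme2 438.6. Across all 52 libraries with the mean of each time removed, Psmb10 correlated with Psmb8 (r = 0.86), Psme2 (0.82), Psme1 (0.80), Psmb9 (0.79) and Tap2 (0.73), a peptide transporter chain, but with Tap1, its partner chain, only at 0.25. Both Tap probe sets were too dim to be tested, with 35.8 (Tap1) and 23.9 (Tap2) at 0 h. The low r of so dim a probe set cannot show that Tap1 varied apart from the other genes. These r describe libraries that share array and RNA preparation.

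Neither Psme1 nor Psme2 was called at 2 to 4 h. Psme1 had 661.1, 611.2, 577.8 and 579.9 at 0 h and ran from 601.7 through 693.3 to 870.6 (0.23 ± 0.16, adjusted p = 0.383). Psme2 had 314.6, 260.1, 270.9 and 271.1 and ran from 290.7 through 397 to 453.4 (0.46 ± 0.23, adjusted p = 0.207). Psmb8 and Psmb9 differed by 0.82 (adjusted p = 0.119) and 1.15 (adjusted p = 0.101). All 5 genes were thus higher in the mean at 2 to 4 h, none past the threshold in the fit over all times. The summed intensity of 11 leukocyte markers, all 11 on the array, is given beside these values. It ran from 2841 to 3197 before injection and from 3307 to 4803 at 2 to 4 h. It spanned 2402 to 5256 in the window of 5 to 8 h and 3149 to 3926 in that of 30 to 72 h. In 5 h replicate 2 it was 5256 and in 7 h replicate 3 it was 4231. The sum is not an even measure of leukocytes. Its brightest marker was Cd74, with a median of 2250, and the next was C1qc, with 236. At 2 to 4 h C1qa, C1qb, C1qc, Cd14 and S100a9 were called higher, by between 0.996 (C1qc) and 3.65 (S100a9). Ptprc, Cd68, Csf1r and Cd74 were not called in that window. S100a8 and Cd3e of T cells were below the filter, Cd3e with a median of 13.1. The part of leukocytes in the immunoproteasome values was not tested.

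**Figure D4:**
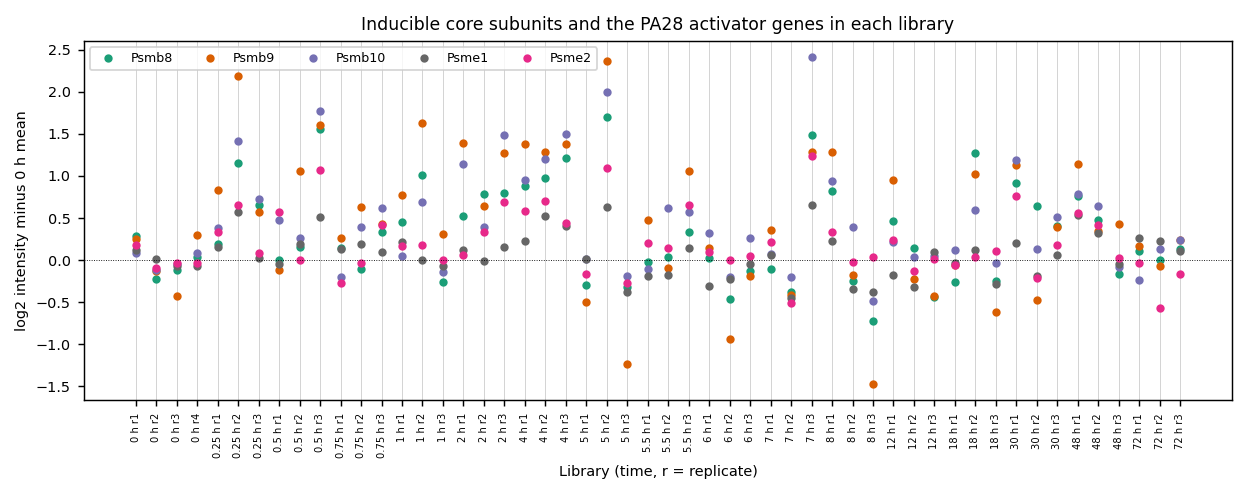
Log2 intensity minus the mean of the 4 libraries at 0 h, for Psmb8, Psmb9, Psmb10, Psme1 and Psme2, in each of the 52 libraries ordered by time. The points of 5 h replicate 2 and 7 h replicate 3 lie above the other 13 libraries of 5 to 8 h for Psmb8, Psmb10, Psme1 and Psme2.

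Psme4 is the large activator PA200, which caps the core in the nucleus and is known for the degradation of acetylated histones. Its 3 probe sets did not behave alike. Probe set 1368817_at had 333.5, 282.1, 302 and 323.1 at 0 h, and ran from 366.2 through 412 to 575.7 at 5 to 8 h, with all 15 libraries above those at 0 h. It was 1.37-fold higher (0.46 ± 0.09, adjusted p = 0.00066). At 30 to 72 h it ran from 237.2 through 291.6 to 412, and 5 to 8 h was 1.43-fold higher (0.52 ± 0.07, adjusted p = 2.66e-07).

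Probe set 1387345_at of Psme4 had 206.3, 227.6, 171.3 and 217.1 at 0 h. It ran from 136.9 through 311.3 to 383.4 at 5 to 8 h, and 14 of 15 libraries lay above those at 0 h. The exception was 5 h replicate 1, where array a, the array with high 3′ to 5′ ratios, gave 64.83 and array b 280.5. The difference was 0.52 ± 0.16, or 1.43-fold (adjusted p = 0.0349). With array b alone for that replicate, an alternative chosen after the data were seen, it was 0.59 (adjusted p = 0.00422). The call was lost when any 1 of the 4 libraries at 0 h, 5 h replicate 2, 6 h replicate 2 or 8 h replicate 3 was left out. Against 30 to 72 h, which ran from 99.41 through 166 to 285.2, it was 1.73-fold higher (0.79 ± 0.12, adjusted p = 4.35e-06).

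Psme4 probe set 1368818_at ran from 87.43 through 134 to 170.3 at 5 to 8 h, around its 123 to 138.7 at 0 h. It differed by -0.019 ± 0.11 from 0 h (adjusted p = 0.945) and by 0.11 from 30 to 72 h. The rise of Psme4 thus rests on 2 of its 3 probe sets.

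In the ATPase ring of the regulatory particle, all 5 probe sets (Psmc1 to Psmc5) were above 0 h in the mean at 5 to 8 h, from 0.008 to 0.19, and none was called. All 5 were above 0 against 30 to 72 h too, and 2 were called. Psmc2 ran from 516.5 through 684.2 to 812.9 at 5 to 8 h and from 463.5 through 555.4 to 648.4 at 30 to 72 h (0.27 ± 0.07, adjusted p = 0.00433). Psmc1 ran from 299.8 through 344.5 to 462.7 and from 252.2 through 294.9 to 340.8 (0.24 ± 0.08, adjusted p = 0.0262). The ranges of both genes overlap between the windows. The call of Psmc1 is lost without 30 h replicate 2 or 72 h replicate 3, and without 5 h replicates 1 and 2 and 7 h replicate 3 its adjusted p is 0.0872.

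Psmc5 changed over the time course, with its largest difference at 8 h (0.38 ± 0.15). It had 239.5, 282.1, 223 and 244.4 at 0 h and 297.4, 356.6 and 314.5 at 8 h, without overlap. The call over all times was lost without 0.5 h replicate 1 or 3, 7 h replicate 1 or 8 h replicate 2, and without 5 h replicates 1 and 2 and 7 h replicate 3 together. It was also lost without the arrays lettered b or c (adjusted p = 0.0706). The calls over all times of Psmd7 (0.207) and Psme4 1387345_at (0.325) were lost in that setting too. Over 5 to 8 h Psmc5 ran from 210.3 through 284.2 to 356.6, and the window was not called (0.19, adjusted p = 0.312).

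Among the non-ATPase subunits Psmd7, a scaffold that pairs with the deubiquitinase of the lid, was the only one called in a window. It had 312.5, 295.7, 307.2 and 270.8 at 0 h and ran from 259.6 through 347.3 to 465 at 5 to 8 h, with 14 of 15 libraries above those at 0 h. That difference was not called (0.21 ± 0.09, adjusted p = 0.148). At 30 to 72 h it ran from 218.8 through 278.5 to 324.6, and 5 to 8 h was higher (0.34 ± 0.07, adjusted p = 0.000221).

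Psmd13, another lid subunit, changed over the time course but not in 1 direction. It had 151.1, 194.3, 156.8 and 159.1 at 0 h. At 0.25 to 1 h it ran from 105.5 through 128.6 to 151.2, and 11 of 12 libraries lay below those at 0 h (-0.35 ± 0.13, adjusted p = 0.444). At 5 h, its time of largest difference (-0.45 ± 0.17), it had 138.5, 143 and 83.69, all below those at 0 h. Its median at 2 to 4 h was 163.4, near the level at 0 h.

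The ubiquitin receptor Psmd4 had 241.2, 216.5, 225.5 and 197.9 at 0 h and ran from 232.1 through 276.8 to 296.2 at 2 to 4 h (0.27 ± 0.12, adjusted p = 0.144). The scaffold Psmd1 had 78.97, 124.9, 127.4 and 129.9 at 0 h and ran from 116.6 through 156.4 to 184.1 at 2 to 4 h (0.42 ± 0.20, adjusted p = 0.177). Neither was called. Both probe sets of Psmd11, a lid subunit, differed from 0 h by at most 0.12 in size at 5 to 8 h. At 0.75 h they differed in opposite directions, by 0.20 and -0.39.

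The inhibitor Psmf1 had 121.4, 132.8, 162.4 and 67.94 at 0 h, a wide spread, and ran from 138.1 through 150.5 to 204.7 at 2 to 4 h (0.44, adjusted p = 0.262). The brightest chaperone, Psmg4, ran from 204.5 through 228.6 to 271.5 at 2 to 4 h and from 236 to 322.4 at 0 h (-0.22, not called). As a group the assembly chaperones had a median difference of -0.055 at 5 to 8 h, with 2 of 7 above 0. Psmg1, which starts the assembly of the alpha ring, was the only one called. It had 203.4, 175.4, 175.8 and 166.1 at 0 h and ran from 107.8 through 142.3 to 181.6 at 5 to 8 h, with 14 of 15 libraries below those at 0 h. Psmg1 fell by 0.33 on the log2 scale (SE 0.10, adjusted p = 0.033), and lay below 30 to 72 h too (-0.22 ± 0.08, adjusted p = 0.0299). The call against 0 h was lost when 0 h replicate 1, 2 or 3, 5.5 h replicate 2 or 6 h replicate 2 was left out. That against 30 to 72 h was lost when replicate 2 of 5, 5.5, 6, 48 or 72 h, or replicate 1 of 30 or 48 h, was left out (adjusted p 0.0518 to 0.0717).

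Of the 2 symbols that are no subunits, Psme3ip1, a partner of the PA28 gamma activator, fell at 5 to 8 h. It had 320.7, 230.9, 429 and 397.8 at 0 h and ran from 179.4 through 229.4 to 306.6. The difference was -0.46 ± 0.13 (adjusted p = 0.0148), and it was lost without 0 h replicate 3 or 0 h replicate 4. The difference from 30 to 72 h was -0.27 ± 0.10 (adjusted p = 0.0341). It was lost when replicate 1 of 8, 30 or 72 h, replicate 2 of 5, 48 or 72 h, or replicate 3 of 48 h was left out (adjusted p 0.0512 to 0.116), and without 5 h replicates 1 and 2 and 7 h replicate 3 together (0.0822). Psmc3ip, which acts in meiotic recombination, differed by -0.29 ± 0.11 at 2 to 4 h (adjusted p = 0.0877).

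The core and the regulatory particle were then compared library by library, each as the median of its probe sets' differences from the mean at 0 h. The 13 standard core subunits gave 0.005 ± 0.11 (SD, n = 4) before injection. At 5.5, 6, 7 and 8 h their means were 0.18, 0.13, 0.23 and 0.11, with SDs of 0.094, 0.027, 0.18 and 0.046 (n = 3 each). The 15 probe sets of the regulatory particle gave -0.002 ± 0.052 before injection. For them the means at 4, 5.5, 6, 7 and 8 h were 0.21, 0.078, 0.13, 0.23 and 0.17, with SDs of 0.21, 0.071, 0.089, 0.30 and 0.027. At 5 h the core had 0.009 and the regulatory particle -0.014. Without 7 h replicate 3 the means at 7 h were 0.13 for the core and 0.058 for the regulatory particle, and without 4 h replicate 2 the latter's mean at 4 h was 0.090 (2 libraries each). At 8 h all 3 libraries of the regulatory particle, at 0.14 to 0.19, lay above its 4 libraries of 0 h, the highest of which had 0.073. The spread between replicates was widest at 5 h for the core (SD 0.19) and at 7 h for the regulatory particle. The median over all tested probe sets stayed between -0.087 and 0.032 in each library. As windows, the core's probe sets had a median difference of 0.11 at 2 to 4 h and 0.10 at 5 to 8 h, and those of the regulatory particle 0.059 and 0.11. No test of the particles against each other was made.

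**Figure D5:**
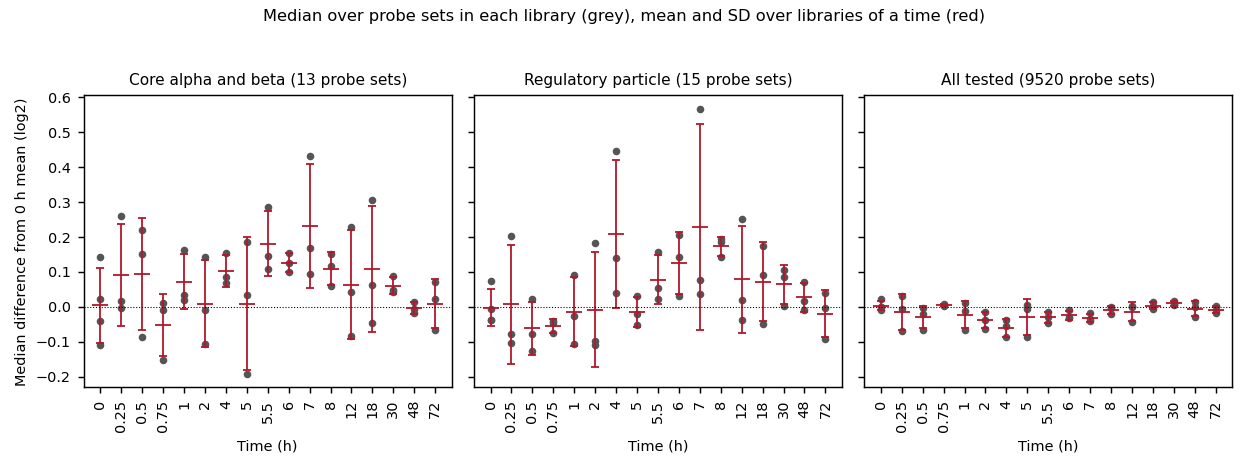
Median difference (log2) from the mean at 0 h in each library against time, over the 13 standard core subunits, the 15 probe sets of the regulatory particle and all 9520 tested probe sets, with mean and SD per time in red (n = 4 at 0 h, 3 at each other time). Core and regulatory particle lie slightly above 0 from 5.5 to 8 h, but also at some other times such as 4 h and 18 h. The library 7 h replicate 3 lies far above its replicates, and all tested probe sets stay near 0.

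In 7 h replicate 3 the median member lay 0.52 above the mean at 0 h, and 35 of 44 members were above every library at 0 h. The lowest library, 5 h replicate 3, had a median of -0.14. The largest difference from 0 h fell at 7 h for 11 members (25%), against 7.56% of all tested. Without 7 h replicate 3 it fell there for 3 (6.82%), against 6.3%. It fell at 4 h for 8 members (18.2%), against 22.3%.

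The wider ubiquitin pathway was read from a list of 73 genes that are no members by the rule on symbols. Subunits of the regulatory particle with other names, such as Sem1 and Adrm1, are therefore on this list and not among the members. Of the 73 genes, 64 were on the array with 1 symbol and 55 were tested. Each gene was counted by 1 probe set. The window of 2 to 4 h had 4 higher and 2 lower, 6 of 55 beside the 9.97% called over all tested, with a median difference of 0.06. Ddi2, the protease that activates the proteasome's transcription factor Nfe2l1, had 140.1, 134.7, 128.8 and 141.5 at 0 h, 288.1, 234.2 and 319.6 at 2 h and 393.2, 388.7 and 451.4 at 4 h. It rose by 1.27 ± 0.15 (adjusted p = 3.12e-08) and was still up by 0.83 ± 0.13 at 5 to 8 h (adjusted p = 7.4e-06). Nfe2l1 itself differed by 0.38 at 2 to 4 h in its brightest probe set (adjusted p = 0.214), and another of its 3 probe sets was called (0.42, adjusted p = 0.0233). The members' median difference in the same window was 0.045.

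The ligase subunit Fbxo31, the conjugating enzyme Ube2g2 and Nedd4l, a ligase for sodium channel subunits, rose by 0.99 ± 0.19, 0.81 ± 0.21 and 0.74 ± 0.21 at 2 to 4 h (adjusted p = 0.000237, 0.00679 and 0.0186). Uba3, of the enzyme that activates NEDD8, fell by 0.56 on the log2 scale (adjusted p = 0.0252) and the conjugating enzyme Ube2l3 by 0.48 on that scale (adjusted p = 0.0156). Both were below 0 h in the mean of every window. Neither was called at 2 to 4 h against 30 to 72 h (Uba3 -0.028, adjusted p = 0.904, and Ube2l3 -0.202, adjusted p = 0.187). Another probe set of Ube2l3 was not called (-0.205, adjusted p = 0.17), and another of Nedd4 was called lower (-0.353, adjusted p = 0.0455). The call of Nedd4l was lost without 0 h replicate 4, 2 h replicate 3 or 4 h replicate 2, as was that of Ube2l3. That of Ube2g2 was lost without 0 h replicate 3, and that of Uba3 without 0 h replicate 1, 2 or 4, 2 h replicate 3 or 4 h replicate 2. By the counted probe sets only Fbxo31 (1.04) and Ddi2 were called at 5 to 8 h. Other probe sets of Ubqln1 (0.352, adjusted p = 0.0195) and Txnl1 (0.369, adjusted p = 0.0466) were called higher there too. At 5 to 8 h against 30 to 72 h, 13 of the 55 tested genes of the list were called, beside 26.2% of all tested. Of these, 11 were higher (12.5% of all) and 2 lower (13.8% of all). Among the 14 tested genes listed as shuttles and receptors, 6 were higher in this comparison. Of the 14, 1 was lower, Sem1 (-0.346, adjusted p = 0.000686). The higher ones were Txnl1 (0.41), Nploc4 (0.38), Ecpas (0.35), Ufd1 (0.26), Ubqln1 (0.23) and Rad23b (0.20), with adjusted p between 0.000706 and 0.0297. Another probe set of Ubqln1 was higher by 0.611 (adjusted p = 5.32e-08). Those of Txnl1 (0.141), Nploc4 (0.103) and Ufd1 (0.173) were not called. The conjugating enzymes Ube2g2 (0.41), Ube2v2 (0.39) and Ube2q2 (0.24) were higher in the same comparison, as was another probe set of Ube2b (0.458). The core assembly factor Pomp was lower at 5 to 8 h than at 30 to 72 h (-0.23 ± 0.07, adjusted p = 0.00899). The muscle ligases Fbxo32 and Trim63 were too dim to test.

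A second array type was run on 10 libraries, 4 untreated and 3 each of 2 and 6 h, and on it 41 of 46 probe sets of 25 proteasome genes were tested. At 2 h 3 were called (7.32%), against 9.8% of 5244 tested probe sets, 2 higher (4.82% of all) and 1 lower (4.98% of all), with a median of 0.13 beside -0.073 over all. At 6 h none was called, against 2.35%, with a median of 0.086 beside -0.025. On this type 2 h replicates 1 and 3 were arrays lettered b, and all libraries of 0 and 6 h were lettered a. The array letter can thus hardly be told apart from 2 h. Alternatives on the letter were run for the main type alone. Of the 3 Psmd4 probe sets 1 had 143.2, 127.2, 120.6 and 109.9 at 0 h and 211.8, 320.9 and 202.1 at 2 h, and rose by 0.92 ± 0.21 (adjusted p = 0.0184). Another rose by 0.99 ± 0.25 (adjusted p = 0.0315; 0.0814 without 2 h replicate 2), and the remaining one differed by -0.38 ± 0.22.

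The Psme4 probe set of the second type had 106.6, 151.9, 143 and 83.83 at 0 h and 43.58, 23.03 and 68.4 at 2 h. It fell by 1.44 on the log2 scale (SE 0.35, adjusted p = 0.0252), and differed by -0.76 ± 0.35 at 6 h, whereas the 3 Psme4 probe sets of the main type differed by -0.11 to 0.69 at 6 h. The fall was not called without 0 h replicate 2 (adjusted p = 0.0639), 0 h replicate 3 (0.0716) or 2 h replicate 2 (0.0645). Without 0 h replicate 3 none of the 41 was called at 2 h, without 0 h replicate 4 there was 1 call, and without 2 h replicate 1 or 2 h replicate 3 there were 5. Psma6 differed by 0.15 ± 0.20 at 2 h and 0.30 ± 0.20 at 6 h on the second type, both upward and neither called. Of 11 genes with several probe sets on the second type, 4 had probe sets of opposite sign at 2 h.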

How the data were processed

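Total RNA of rat kidney was measured on 53 arrays of a main Affymetrix type and 10 of a second, 52 and 10 libraries. The authors deposited intensities on a linear scale, which by the values themselves were scaled per array to a 2% trimmed mean of 150.03 to 150.04 (main) and 150.19 to 150.23 (second); how probe brightness was summarised is not given in the sources used. The number of arrays limits the precision. Both types were tested separately.

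Values were taken as log2(intensity + the 10th percentile of the table), 7.63 and 3.56. A filter at the 40th percentile of the mean level left for testing 9520 of 15866 and 5244 of 8740 without controls. Arrays a and b of 5 h replicate 1 were averaged. All times entered 1 fit with limma 3.58.1 in R 4.3.3, with a mean-variance trend and Benjamini-Hochberg adjustment at 0.05; windows are unweighted means of their times. The script was tested on simulated data. Symbols came from the platform annotation, updated by gene identifier with RefSeq names of GRCr8: 12783 probe sets had 1 symbol, 312 several and 2771 none. Probe sets with several symbols, among them those of Psmb6 and Psme3, were not used. Promoters are from RefSeq, GRCr8.

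Named were all members called over all times or in a window, the brightest member of each role, Psmb5, Psmb7, Psmb10, Psme1 and Psme2, genes whose probe sets disagreed, and called genes of the ubiquitin list with Nfe2l1, Pomp, Psmb8 and Psmb9. Other members were named after their values were seen. Members, lists and windows were chosen with earlier results of these data known. Alternatives covered pseudocount, filter, normalization, robust moderation, array weights, array letters, replicate block and left-out libraries.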

Additional observations from a re-analysis of the deposited data

Results flagged for a closer look

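Only the libraries at 0 h were tested for 1 standing far from its replicates. Among 18 such groups, each the 4 libraries at 0 h for 1 probe set of a named member, none did. Chance marks about 1 group in 20 in this test. The times after injection, with 3 libraries each, were not tested for this. The difference from 0 h changed between windows for 9 probe sets, by the direct comparison of the windows in limma. At 5 to 8 h minus 30 to 72 h it was 0.45 for Psma6, 0.52 and 0.79 for 2 probe sets of Psme4, 0.34 for Psmd7, 0.27 for Psmc2 and 0.24 for Psmc1. It was -0.21 for Psmb5, -0.22 for Psmg1 and -0.27 for Psme3ip1. At 2 to 4 h minus 30 to 72 h it was 0.40 for Psma6. These are 10 differences in all.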

How the results depend on the processing

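The median SE of a member's difference from 0 h was 0.13 at 2 to 4 h and 0.11 at 5 to 8 h, which limits what could be called. Counts of called members moved as follows. Over all times (6 in the report) there were 18 with array weights, whose estimation stopped before its tolerance, and 3 once arrays lettered b or c were dropped (below, no b or c). At 2 to 4 h (1) there were 2 with the filter at the 60th percentile, 5 with array weights, 0 with no b or c, 3 without the libraries that stand apart, and 3 with that window and 0 h fitted alone. At 5 to 8 h (5) there were 3 with no b or c, 3 without the libraries apart and 2 with that window and 0 h alone. For 5 to 8 h against 30 to 72 h (9) there were 4 with no b or c. For 2 to 4 h against 30 to 72 h (1) there were 2 with the 60th percentile, 2 with quantile normalization, 13 with array weights, 0 with no b or c, 3 with the letter as a term and 2 without the libraries apart. Of the ubiquitin list over all times (8), 33 were called with weights and 3 with no b or c.

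Of the alternatives chosen after the data were seen, leaving out 5 h replicates 1 and 2 and 7 h replicate 3 gave 3 at 2 to 4 h and 5 at 2 to 4 h against 30 to 72 h. Array b alone for 5 h replicate 1 gave 2 at 2 to 4 h. The labels do not say what a replicate number marks. Deviations of same-numbered libraries of different times had a median r of 0.057 (-0.53 to 0.49), against -0.025 for different numbers, and 29 of 52 libraries had their best partner under their own number, a hint of pairing from the data and not the design. With the replicate block 3 members were called at 5 to 8 h, without Psme4 1387345_at and Psme3ip1, and 2 at 2 to 4 h against 30 to 72 h; Nedd4l and Ube2l3 at 2 to 4 h and 1 Psmd4 probe set of the second type were not called either.

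Leaving out 1 library at a time gave 5 to 7 members over all times, 1 to 3 at 2 to 4 h, 2 to 5 at 5 to 8 h, 6 to 12 at 5 to 8 h against 30 to 72 h, 1 to 3 at 2 to 4 h against 30 to 72 h and 5 to 10 of the ubiquitin list, 5 without 4 h replicate 2, 8 h replicate 3 or 72 h replicate 3. It gave 0 to 0 at 0.25 to 1 h, 12 to 18 h and 30 to 72 h. On the second type it gave 0 to 5 at 2 h and 0 to 0 at 6 h. The small difference of Psmb5 at 2 to 4 h changed sign: it was 0.006 with array weights, and from -0.068 to 0.007 with 1 library left out, above 0 without 0 h replicate 1 (0.003) or 4 h replicate 1.

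Over all tested probe sets, array weights called 1025 higher and 1378 lower at 2 to 4 h (492 and 457 in the report's fit), and 1388 and 1938 at 2 to 4 h against 30 to 72 h (845 and 1005). With no b or c, 5 to 8 h against 30 to 72 h gave 629 and 647 (1188 and 1309), and 2 to 4 h against 30 to 72 h 450 and 417. At 0.25 to 1 h (59 and 4) weights gave 104 and 42 and the replicate block 35 and 0, and at 12 to 18 h (27 and 10) weights gave 33 and 32. The cause of these moves was not tested.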

Other observations

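Within times, the proteasome genes varied together more than probe sets in general. With the mean of each time removed, the median r between members over 52 libraries was 0.16 (946 pairs, 74.5% above 0), against 0.005 over all tested. It was 0.24 among the 13 standard core subunits, 0.30 in the regulatory particle, 0.35 among the 5 ATPases (10 pairs, all above 0) and 0.048 among the chaperones. Psmb4 (0.89), Psmc3 (0.79), Psmd2 (0.79), Psmd7 (0.78) and Psma7 (0.75) followed the mean of the other members most closely, and the Psme4 probe set 1368818_at (-0.50) and Psmc3ip (-0.43) ran against it. These r describe libraries that share array, scaling and RNA preparation, 7 h replicate 3 among them.

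The members also varied less than probe sets in general. The median SD within times was 0.20 (log2), against 0.26 over all tested.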
